A study of Mus musculus with 5 samples.

Results

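Gata4, Gata5, Gata6, Onecut2, Cdx1, Cdx2, Hnf4a, Hnf4g and Klf5 are 9 transcription factor genes that set regional and enterocyte identity in the gut. They were taken by symbol from the 27998 genes of the deposited gene table, and all 9 were found there. Single epithelial cells of the ileum, the distal end of the small intestine, had been profiled by droplet RNA sequencing (10x Genomics, 3′ chemistry, version 2). The mice were C57BL/6, aged 8 to 12 weeks, with no engineered allele named. The sham group (sham surgery as the treatment) has 3 libraries, and the resection group (small bowel resection, in which a length of small intestine is removed) has 2 libraries. The labels do not say whether each library is a separate animal or a pool, so each p-value below measures only the spread between these libraries. The question is whether the factors differ along the crypt-villus axis, between cell classes, and after resection.

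In the mouse intestine GATA4 and GATA6 are zinc finger factors that act along most of the small intestine, and GATA4 is known for holding a jejunal programme and fading towards the ileum. The caudal homeobox factors CDX1 and CDX2 give the epithelium its intestinal identity, and the nuclear receptors HNF4A and HNF4G act together to drive enterocyte genes, many of them for fat uptake and the brush border. KLF5 is a zinc finger factor of the proliferating crypt, and ONECUT2 is a cut homeobox factor of the proximal gut. Enterocytes are born in the crypt, pass an immature stage at the villus base and mature as they climb the villus.

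In the GRCm38 annotation Hnf4a (chromosome 2, 163506808 to 163572910, plus strand) and Gata5 (chromosome 2, 180325133 to 180334699, minus strand) share a chromosome. Gata4 (63198922 to 63271692, minus strand) and Klf5 (99298691 to 99315036, plus strand) share chromosome 14. Hnf4g lies on chromosome 3 (3508030 to 3658052, plus strand) and Cdx2 on chromosome 5 (147300805 to 147307270, minus strand), while Gata6, Cdx1 and Onecut2 lie on chromosome 18. All 9 are protein-coding, and for all 9 the identifier in the deposited table matched the annotation.

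The 5 matrices held 19404 cells with 11749028 to 41281731 UMIs (unique molecular identifiers, each standing for 1 captured transcript) per library. After filters 18235 cells were kept and formed 22 clusters, which were named from marker genes as crypt-like (stem-like and cycling cells), immature enterocyte-like, mature enterocyte-like (called villus below), goblet-like, Paneth-like, tuft-like or T cell-like. In library order sham 1, 2, 3, resection 1, 2, which is used throughout, villus cells numbered 696, 1987, 1024, 2465 and 3993, and crypt cells 66, 257, 453, 322 and 589. The other classes were smaller, with 34 to 210 goblet cells and 120 to 261 Paneth cells per library. Pairs of libraries shared 6 to 47 cell barcodes. Sham 1 and resection 1 filled clusters that the other 3 libraries hardly entered, and the labels name no batch, so values within each of these sets (set A, sham 1 and resection 1; set B, the rest) stand beside the main results. In this clustering sham 1 had no stem-like cell, so its crypt value is from 66 cycling cells. In resection 1 only 20 of the 322 crypt cells were stem-like. With genes scaled within each library before clustering, stem-like cells were 19 of 85 crypt cells in sham 1 and 96 of 346 in resection 1. A cluster of 1416 cells led by Ccl20 and Fabp6 stayed unnamed, since Lypd8, an immature enterocyte marker, and no mature one was among its 10 leading genes, and enters only the sum of all epithelium; it made up 0, 10.8, 19.5, 0.163 and 6.85% of the kept cells.

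Levels below are CPM, the UMIs of a gene summed over the cells of a class in a library and scaled to the same total of UMIs in every library with edgeR's TMM factors, and are given as the mean ± SD of the 5 libraries unless each library is listed. Onecut2 had almost no UMIs and is described further below. The other genes fell into a crypt-high set (Cdx1, Klf5, Gata6), a villus-high gene (Gata5) and a set with smaller crypt-villus differences (Hnf4a, Cdx2, Hnf4g, Gata4). The classes came from clustering on these cells, so differences between classes are a description and carry no test. The method counts 3′ ends, so UMIs do not scale with transcript length. Other differences in capture between genes were not tested, so the orders below are of UMI levels only. In the crypt the order was Hnf4a, Cdx1, Klf5, Cdx2, Gata6, Hnf4g, Gata5, Gata4 and Onecut2, and in the villus it was Hnf4a, Cdx2, Klf5, Cdx1, Hnf4g, Gata5, Gata6, Gata4 and Onecut2. Neighbours whose means lay within the larger of their SDs were Cdx1, Klf5 and Cdx2, and Gata6 and Hnf4g, in the crypt, and Klf5, Cdx1, Hnf4g and Gata5 in the villus, so the order among these is not resolved.

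**Figure D1:**
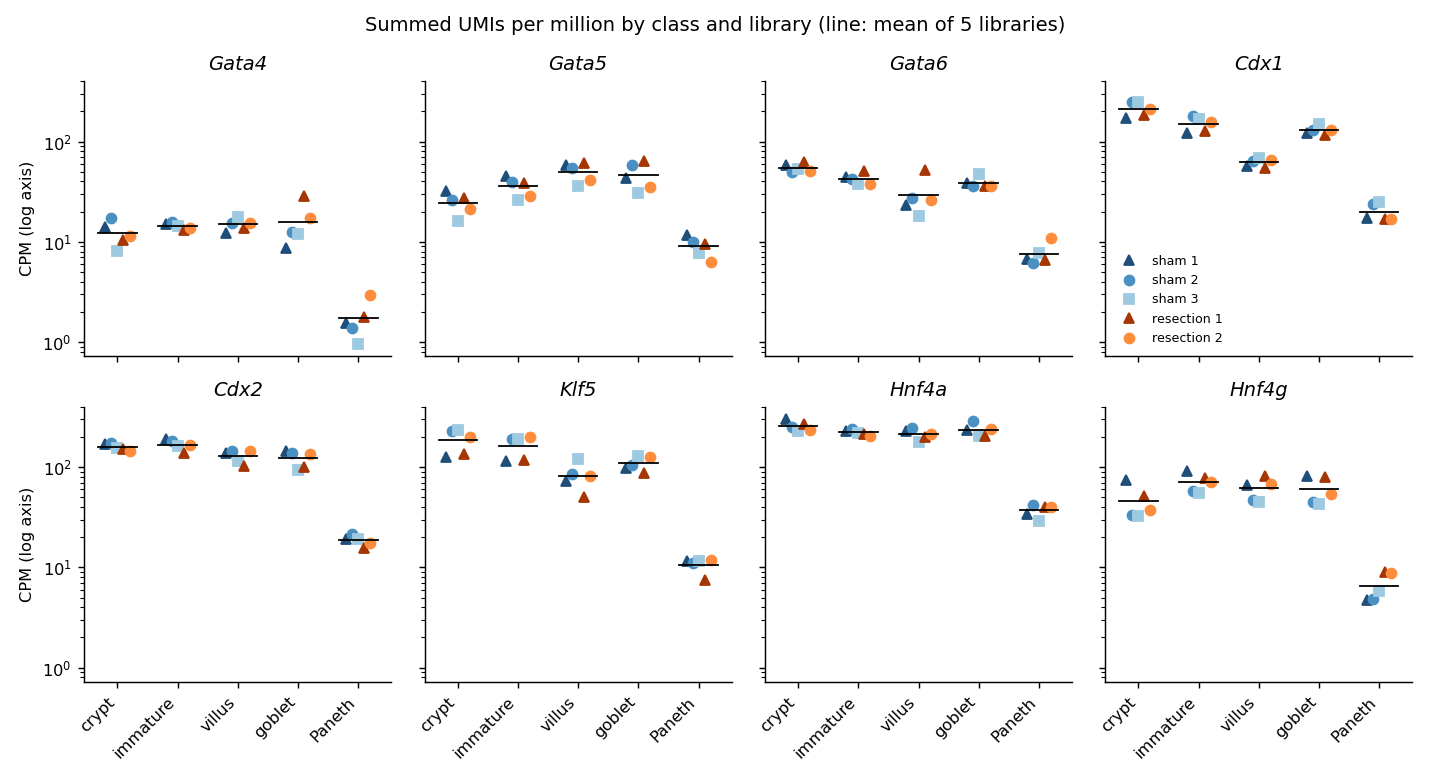
Level of each gene (CPM, log axis) in crypt, immature, villus, goblet and Paneth cells, with 1 point per library (sham and resection marked by colour) and a line through the means of the 5 libraries. Cdx1 and Klf5 step down from crypt to villus, Gata5 steps up, and all 8 genes shown are lowest in Paneth cells.

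Cdx1, the caudal factor of the crypt, was 170, 247, 247, 185 and 210 CPM in crypt cells and 57.3, 64.7, 69.2, 54.8 and 66.1 CPM in villus cells. The highest villus library was below the lowest crypt library, and the log2 ratio of villus to crypt was -1.75 ± 0.14 (SD, n = 5), 3.37-fold lower. Immature cells lay between, at 150 ± 25.1 CPM. Goblet cells kept more Cdx1 than villus cells in 5 of 5 libraries, with a log2 ratio of 1.06 ± 0.06.

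Cdx2, its partner, was nearly level along the axis. Its crypt level was 158 ± 12.2 CPM, its immature level 168 ± 20.4 CPM and its villus level 130 ± 20.3 CPM. Pooled over libraries without TMM factors, Cdx2 was 117 CPM in stem-like, 160 CPM in cycling and 127 CPM in villus cells. Villus lay below crypt in 4 of 5 libraries, with a log2 ratio of -0.30 ± 0.22. The ratio of Cdx1 to Cdx2 UMIs therefore turned over along the axis. On the log2 scale it was 0.00, 0.52, 0.68, 0.30 and 0.54 in the crypt and -1.27, -1.18, -0.72, -0.90 and -1.15 in the villus. Cdx2 exceeded Cdx1 in the villus of every library, whereas in the crypt Cdx1 equalled it in sham 1 and exceeded it in the other 4 libraries.

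Klf5 followed Cdx1. Its crypt levels were 128, 229, 234, 137 and 199 CPM, its immature levels 117, 192, 191, 117 and 199 CPM and its villus levels 73.2, 85.4, 120, 50.4 and 81.2 CPM. Sham 1 and resection 1 were the lowest libraries in all 3 classes, a split by library set, and without TMM factors this held in crypt and immature but not in villus cells. The log2 ratio of villus to crypt was -1.19 ± 0.29, and villus was lower in 5 of 5 libraries.

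Gata5 ran the other way, at 24.6 ± 6.18 CPM in crypt, 35.7 ± 8.17 CPM in immature and 50.1 ± 10.9 CPM in villus cells. Each step was upward in every library, and the log2 ratio of villus to crypt was 1.04 ± 0.15, 2.05-fold higher. Gata6 stood at 55.0 ± 5.74 CPM in crypt, 42.3 ± 5.25 CPM in immature and 29.4 ± 13.1 CPM in villus cells. Villus was below crypt in 5 of 5 libraries, but the log2 ratio ranged from -1.54 to -0.28, and the smallest gap was in resection 1. Gata4 was the least abundant tested GATA gene, at 12.3 ± 3.50 CPM in crypt and 14.96 ± 2.04 CPM in villus cells, and villus exceeded crypt in only 3 of 5 libraries.

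Among the HNF4 genes, Hnf4a was the most abundant of the 9 in crypt, immature, villus, goblet and Paneth cells. It was 258 ± 29.3 CPM in crypt, 222 ± 13.5 CPM in immature and 214 ± 25.8 CPM in villus cells, with a log2 ratio of villus to crypt of -0.27 ± 0.19. Pooled over libraries without TMM factors, Hnf4a was 206 CPM in stem-like, 252 CPM in cycling and 209 CPM in villus cells. Hnf4g was highest in immature cells, at 70.8 ± 14.5 CPM against 46.0 ± 17.8 CPM in crypt and 61.7 ± 15.8 CPM in villus cells. Immature exceeded crypt in 5 of 5 libraries, with a log2 ratio of 0.67 ± 0.25, while villus exceeded crypt in 4 of 5. Hnf4g was 74.9 CPM in the crypt cells of sham 1 and 32.6 to 51.5 CPM in the other 4, so that library sets the spread there.

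Hnf4a is transcribed from 2 separate start regions, which 3′ reads cannot tell apart, and Cdx2 from 1 region in the RefSeq table. Of the 9 genes, 3 (Hnf4a, Cdx2 and Gata5) had promoter entries there. The 250 bases before each start were searched on both strands for 3 motifs, and no matches overlapped. The letters AGATAA stood for the GATA factors and were found in 9.99% of all 32851 promoters over the same length. The caudal factors were represented by TTTATG, found in 10.8% of promoters. The HNF4 motif searched was CAAAGTCCA, found in 0.384% of promoters. The 250 bases before the upstream RefSeq start of Hnf4a held 1 AGATAA, 52 bases before that start, which overlaps the annotated gene start given above. The downstream Hnf4a start, Cdx2 and Gata5 held none of the 3 motifs. A match says only that these letters are there.

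Onecut2 was close to absent. In all epithelium together it had 0, 3, 4, 7 and 10 UMIs, and the crypt, the class with the most, had 0, 1, 2, 4 and 2. The pooled level was 0.724 CPM in crypt and 0.0899 CPM in villus cells, and no Onecut2 UMI was seen among 2912731 UMIs of T cell-like cells, which allows up to 1.03 CPM there. Too few UMIs were present for a test in any class, and no difference between groups was detectable at this depth.

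In goblet cells, the mucus-secreting class, 7 of the 9 genes passed the filter on low counts, as they did in Paneth cells, and Onecut2 and Gata4 did not. Goblet levels were close to villus levels for Cdx2, Gata5 and Hnf4g, with log2 ratios of goblet to villus of -0.08 ± 0.13, -0.14 ± 0.23 and -0.04 ± 0.24. Klf5 was higher in goblet cells in 5 of 5 libraries (0.46 ± 0.27), and so was Hnf4a by a smaller margin (0.13 ± 0.10). Gata6 was higher in 4 of 5 (0.49 ± 0.69), resection 1 being the exception.

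Paneth cells, the antimicrobial class of the crypt base, had the lowest levels of Gata4, Gata5, Gata6, Cdx1, Cdx2, Hnf4a, Hnf4g and Klf5 in every library. The log2 ratio of Paneth to villus ran from -3.25 ± 0.35 for Hnf4g to -1.67 ± 0.22 for Cdx1. Antimicrobial transcripts of 19 genes took 53.9 to 64.0% of the Paneth UMIs, and Paneth cells held a median of 5738 to 19714.5 UMIs against 4053 to 6353.5 in villus cells. Counted per 100 cells in place of CPM, Paneth and villus cells had 52.8 and 114 UMIs of Hnf4a, 9.06 and 35.2 of Hnf4g, and 26.5 and 33.6 of Cdx1. Per cell, Paneth cells had fewer Hnf4a and Hnf4g UMIs than villus cells in 5 of 5 libraries. Cdx1 was nearly level per cell in sham 1 (0.350 and 0.374 UMIs in Paneth and villus cells) and resection 1 (0.320 and 0.335), and higher in Paneth cells in sham 2 (0.291 and 0.271). It was lower per cell in the Paneth cells of sham 3 (26 UMIs in 120 Paneth cells against 547 in 1024 villus cells). The same held in resection 2 (40 UMIs in 261 Paneth cells against 1247 in 3993 villus cells).

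To compare shares of cells, every cell was thinned to 2000 UMIs. Cdx1 was then found in 35.1 ± 3.91% of crypt, 26.1 ± 2.99% of immature, 11.6 ± 1.18% of villus, 22.3 ± 4.78% of goblet and 2.91 ± 0.91% of Paneth cells (SD, n = 5). Without thinning the crypt and villus shares were 70.6 and 28.2%. Hnf4a was found in 43.7 ± 8.35% of crypt and 34.8 ± 5.11% of villus cells (75.3 and 65.0% unthinned), Klf5 in 27.4 ± 5.03% and 14.3 ± 3.51% (61.1 and 33.6%), and Gata5 in 5.54 ± 2.996% and 9.94 ± 2.98% (15.8 and 23.5%). The crypt-villus order of Cdx1, Klf5 and Gata5 was therefore the same in shares of cells as in CPM.

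T cell-like droplets, which should lack these factors, had them too. After thinning, Cdx1 was in 14.96 ± 4.46%, Klf5 in 18.2 ± 4.30%, Hnf4a in 30.5 ± 9.49%, Cdx2 in 21.7 ± 3.40% and Gata5 in 6.36 ± 5.42% of T cell-like cells. Hnf4g was in 9.76 ± 2.68%, Gata6 in 5.46 ± 5.87% (5.75 ± 2.82% in villus cells) and Gata4 in 1.77 ± 1.30%, at median depths of 4273 to 6702.5 UMIs against 5329.5 to 7227 in crypt cells. Mean shares below the T cell-like ones were those of Cdx1 and Klf5 in villus cells and of Cdx2, Klf5 and Hnf4g in goblet cells. So were those of Hnf4g and Gata5 in crypt cells, and of all 8 detected members in Paneth cells. Some gaps were within the SDs, as for Klf5 in goblet cells (17.9 ± 2.15%). Antimicrobial transcripts also took 53.9 to 64.0% of the Paneth UMIs. Shares this low cannot be told apart from carried-over transcripts, and they include the lower side of the crypt-villus order of Cdx1, Klf5 and Gata5. Villus shares of Cdx2 (22.2 ± 4.03%), Hnf4a (34.8 ± 5.11%) and Gata6 exceeded the T cell-like ones by less than the SDs. The same limit therefore holds for these, and for the lower side of the crypt-villus order of Gata6. Free RNA and doublets were not separated in the T cell-like droplets. The same droplets carried 16564, 26349, 25953, 39862 and 63249 CPM of 12 enterocyte markers, against 25742 to 90584 CPM in villus cells, while 9 T cell markers summed to 29.7 to 125 CPM in villus cells. The part of these transcripts in the levels of the other classes was not tested.

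**Figure D2:**
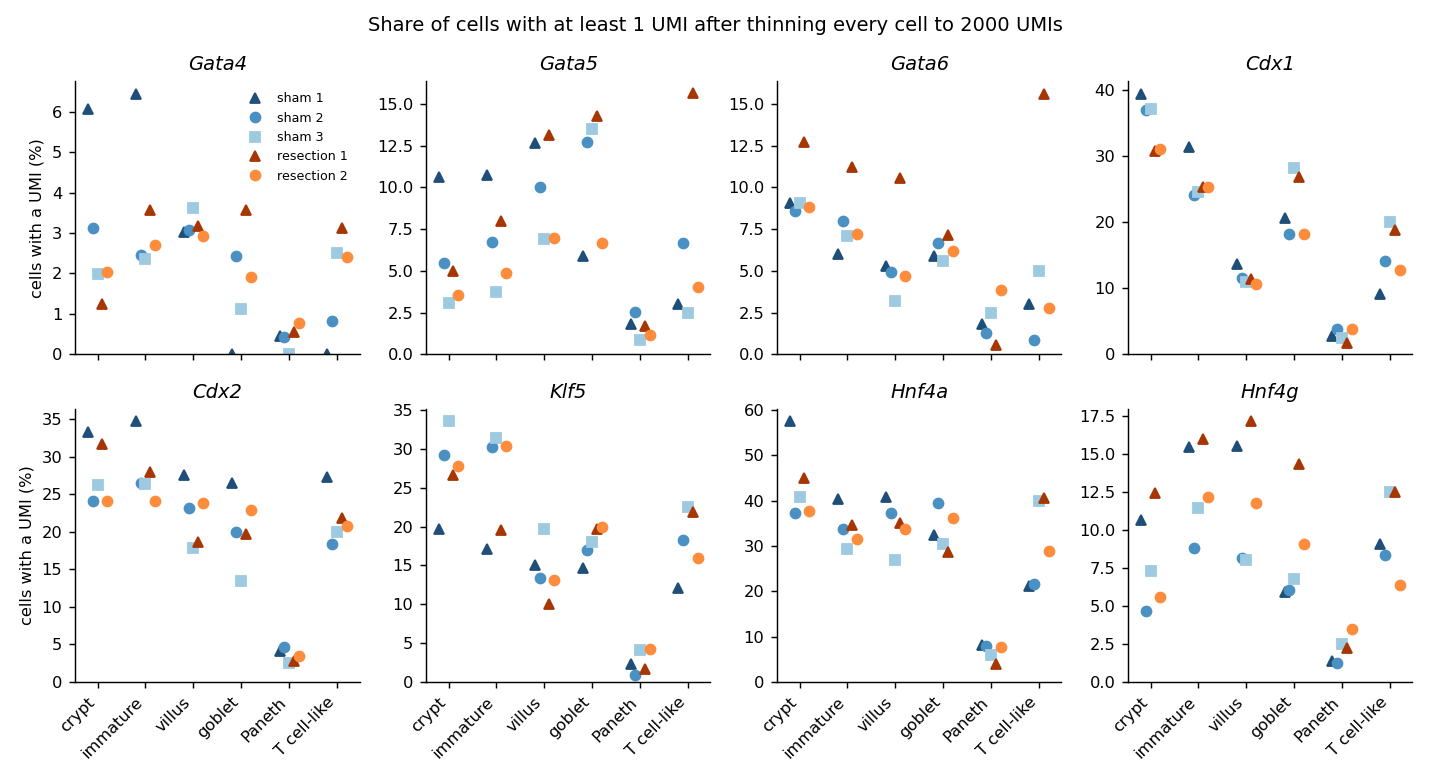
Percent of cells with at least 1 UMI of each gene after thinning to 2000 UMIs, by class and library, with T cell-like cells at the right. Crypt shares of Cdx1 average 35.1% against 14.96% in T cell-like cells, whereas the villus average of 11.6% is below that.

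Villus cells formed several clusters within each library, and 19 sums of at least 50 cells (16 villus and 3 of the unnamed cluster) gave the spread inside the absorptive cells. Gata6 had the widest spread of the GATA genes in 3 of 5 libraries, sham 2, sham 3 and resection 2. In resection 2 it was 55.5 CPM (95% Poisson interval 42.1 to 71.9, counting error only) in the cluster led by Ada, Clca4a and Apoa4, and 16.2 CPM (13.1 to 19.9) in the one led by Areg and Edn1. In sham 2 it was 53.5 CPM (26.7 to 95.6) in 62 cells led by Fabp2, Cyp3a11 and Apoc3, and 17.1 CPM (11.8 to 24.1) in the Ccl20-led cells. In resection 1 it was 65.7 CPM in cells led by Lct, Fabp1 and Apoa4, and 44.4 CPM in those led by Fgf15, while the 3 sums of sham 3 stayed within 13.2 to 17.2 CPM.

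Over these sums the members were set against Apoa4, a lipid carrier of the proximal villus, and against Fabp1, Fabp6 and Slc10a2. Across the 19 sums the Pearson correlation of log levels with Apoa4 was 0.84 for Gata6 and 0.54 for Hnf4a, and -0.83 for Klf5 and -0.68 for Cdx1. After centring within libraries the values were 0.94, 0.83, -0.74 and -0.70. Gata5 had 0.29 with Apoa4 across sums and 0.53 after centring. Gata6 had -0.90 and -0.85 with Fabp6, but -0.23 and -0.30 with Slc10a2, another ileum-type gene. Hnf4g did not follow Apoa4 within libraries, at 0.40 across sums and -0.09 after centring, though it still varied there, for example from 39.3 to 68.0 CPM in sham 2. Sums from 1 library share depth and free RNA, and the clusters were drawn from these same cells, so these values are a description. The members and the list genes, Apoa4 among them, were left out of the variable genes used for clustering. Klf5 and Cdx1 were highest in the Areg-led cluster of sham 2 (117 and 81.3 CPM), sham 3 (139 and 103 CPM) and resection 2 (105 and 80.6 CPM).

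**Figure D3:**
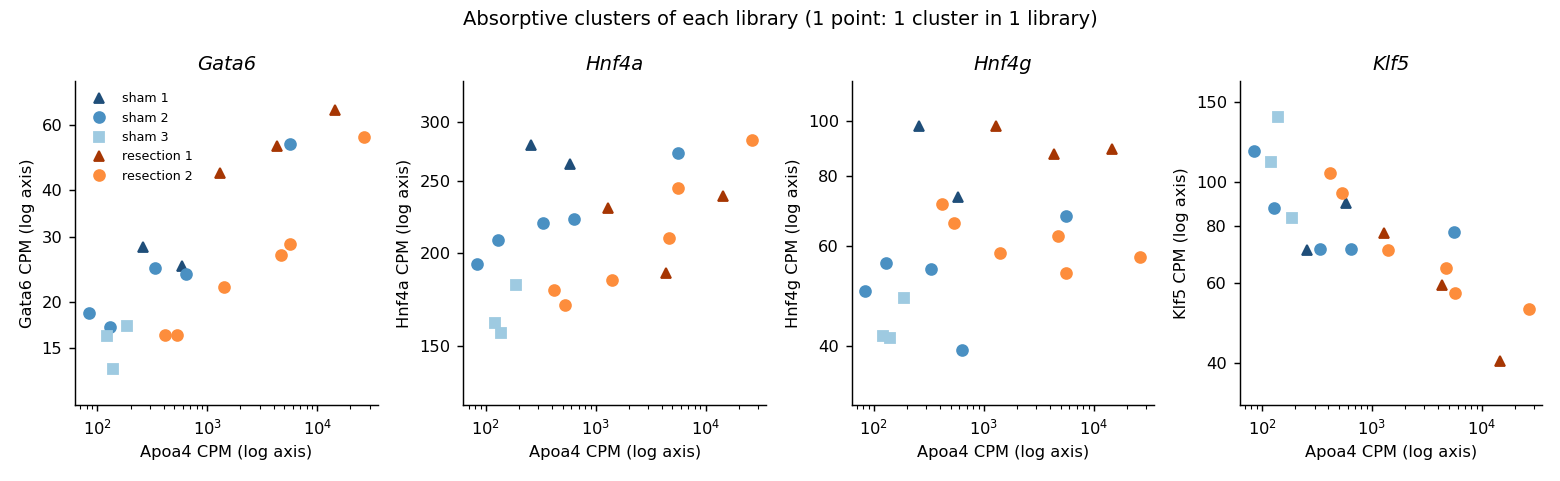
Gata6, Hnf4a, Hnf4g and Klf5 against Apoa4 (CPM, log axes), 1 point for each of 19 cluster sums, coloured by library. Gata6 climbs with Apoa4 and Klf5 descends, while Hnf4g has no such slope within a library.

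Between surgery groups, none of the members passed edgeR's quasi-likelihood test at a Benjamini-Hochberg adjusted p of 0.05 in any class. In villus cells 8 members were tested and 0 were called, 0 had an unadjusted p under 0.05 and DESeq2 called 0, beside 0% of the 10080 genes tested that were called, so the test separated no gene there. In crypt cells 0% of 9685 genes and in immature cells 0% of 9741 genes were called, and in all epithelium 0% of 11687, with 0 of 8 members in each and 0 under an unadjusted p of 0.05. In goblet cells 0 of 7 members were called beside 0.0837% of 5975 genes, and in Paneth cells 0 of 7 beside 0.0658% of 6079, with 1 member at an unadjusted p under 0.05. DESeq2 called 0 members in each of these classes and 63 genes in villus cells. The median log2 fold change of the tested members was -0.06 in villus, -0.10 in crypt, -0.11 in immature, -0.06 in goblet and -0.27 in Paneth cells, beside medians over all genes tested of -0.02, -0.01, -0.02, -0.0049 and -0.0031. Counting members whose groups did not overlap in either direction gave 1 of 8 in villus (18.4% of all genes tested), 1 of 8 in crypt (10.5%), 2 of 8 in immature (11.5%), 0 of 7 in goblet (17.5%), 3 of 7 in Paneth (13.4%) and 0 of 8 in all epithelium (14.2%). These counts rest on the scaling. In CPM without TMM factors, a comparison added after seeing the data, they were Klf5 (below) in villus cells beside 15.2% of genes, Hnf4g (above) in Paneth cells beside 10.3%, Hnf4g and Gata6 (above) in all epithelium beside 20.2%, and 0 members in crypt, immature and goblet cells beside 9.49, 8.44 and 16.5%.

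**Figure D4:**
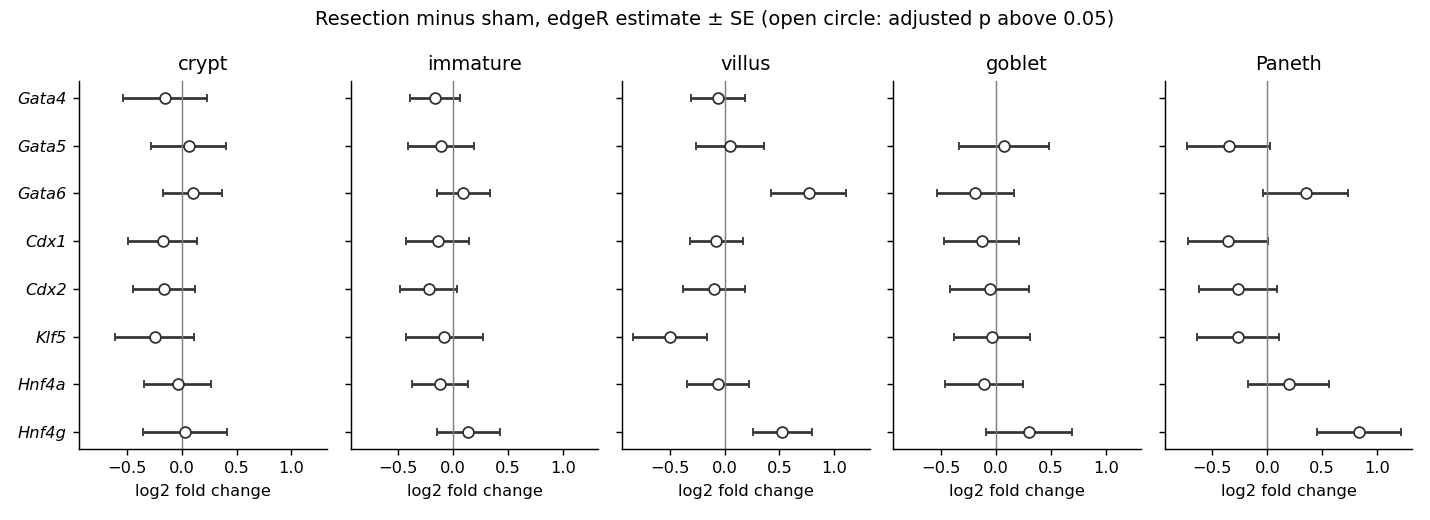
log2 fold change (resection minus sham) of each tested member with its standard error from edgeR, by class. The villus estimates of Gata6 (0.77) and Hnf4g (0.53) and the Paneth estimate of Hnf4g (0.84) lie farthest to the right, and no point passed the adjusted threshold.

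Hnf4g, the second HNF4 gene, was the only member whose villus groups did not overlap after TMM scaling. Its villus levels were 65.7, 47.4 and 44.5 CPM in sham and 82.6 and 68.5 CPM in resection. Both resection libraries were above every sham library, though resection 2 exceeded sham 1 by little, and 10.3% of all genes tested did the same. Without TMM factors Hnf4g was 76.8, 42.7 and 41.3 CPM in sham and 89.9 and 64.0 CPM in resection, and the groups overlapped. The log2 fold change was 0.53 ± 0.27 (SE) with an edgeR quasi-likelihood adjusted p of 0.999 (unadjusted 0.0896), and it was 0.33 within set A and 0.57 within set B. Over 17 alternatives it stayed between 0.39 and 0.72, with a lowest adjusted p of 0.425. Single clusters differed in this respect. Cells led by Fgf15 had 97.8 CPM in sham 1 and 98.0 CPM in resection 1, whereas those led by Areg had 49.96 and 41.3 CPM in sham 2 and sham 3 and 71.3 CPM in resection 2. The Fabp2-led cluster had 68.0 CPM in sham 2 and 62.6 CPM in resection 2, and the Gadd45g-led one 54.7 and 58.3 CPM. The unnamed Ccl20-led cluster had 56.1, 48.7 and 65.9 CPM in sham 2, sham 3 and resection 2.

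The villus cells of each library lay mostly in clusters of their own. Resection 1 supplied 1029 of 1046 and 902 of 906 cells of the clusters led by Lct and Sgk1, resection 2 2294 of 2413 of the Fabp2-led one, sham 1 487 of 500 of the Epha2-led one, sham 2 1323 of 1414 of the H2-Aa-led one, and sham 3 810 of 846 of the one led by Ccl20 and Adm. Library and surgery group cannot be told apart within such clusters.

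Gata6 had the largest villus estimate. It was 23.1, 27.5 and 18.1 CPM in sham and 51.8 and 26.3 CPM in resection. Resection 1 was far above the rest and resection 2 lay inside the sham range. The log2 fold change was 0.77 ± 0.34 (edgeR quasi-likelihood adjusted p = 0.999, unadjusted 0.0559), 1.15 within set A and 0.20 within set B. Without resection 1 it was 0.20 and without resection 2 it was 1.18, so 1 library sets its size. In T cell-like cells Gata6 was also highest in resection 1, at 9.39, 6.24, 24.7, 69.1 and 25.5 CPM without TMM factors, from 2, 4, 7, 17 and 39 UMIs, and its part in the villus difference was not tested. In the crypt Gata6 was 58.7, 49.5, 52.7, 63.0 and 50.9 CPM, and the groups overlapped.

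Klf5 leaned the other way in villus cells, at 73.2, 85.4 and 120 CPM in sham and 50.4 and 81.2 CPM in resection. Resection 1 was lowest and sham 3 highest, and resection 2 was within the sham range, whereas without TMM factors it lay just below it (75.9 against 76.9 CPM in sham 2). The log2 fold change was -0.50 ± 0.33 (edgeR quasi-likelihood adjusted p = 0.999), -0.53 within set A and -0.34 within set B.

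The other villus members showed smaller estimates with overlapping groups. Hnf4a was 229, 246 and 178 CPM in sham and 202 and 215 CPM in resection, a log2 difference of -0.06 ± 0.28. Cdx2 was 138, 146 and 114 CPM in sham and 102 and 147 CPM in resection (-0.10 ± 0.29), and Cdx1 differed by -0.08 ± 0.24. Gata5 was 58.0, 54.0 and 36.4 CPM against 61.4 and 41.0 CPM (0.05 ± 0.31), and Gata4 12.3, 15.4 and 17.8 CPM against 13.9 and 15.4 CPM (-0.06 ± 0.25). Approximate 95% intervals from the SE reached from -0.61 to 0.49 for Hnf4a and from -0.66 to 0.46 for Cdx2 on the log2 scale, so changes within those limits were not detectable.

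Whether surgery acted differently in villus and crypt was tested as an interaction in 1 model over both classes, in which 0 of 8 members and 0.0474% of 10538 genes were called. The log2 difference was 0.60 ± 0.25 for Gata6 (edgeR quasi-likelihood adjusted p = 0.504, unadjusted 0.0280), and it ran from 0.32 to 1.06 over the alternatives. For Hnf4g it was 0.44 ± 0.23 (adjusted p = 0.677 by the same test) and for Klf5 -0.30 ± 0.21 (adjusted p = 0.802). The estimates of Gata4, Gata5, Cdx1, Cdx2 and Hnf4a lay between -0.06 and 0.06.

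In the crypt and among immature cells few members separated the groups. In crypt cells Cdx2 was 170, 172 and 154 CPM in sham and 151 and 145 CPM in resection, below every sham library by a narrow margin, as were 4.77% of all genes tested. Its log2 fold change was -0.16 ± 0.28. In immature cells Gata4 (15.2, 15.9, 14.3 against 13.2 and 13.8 CPM) and Hnf4a (231, 240, 217 against 217 and 206 CPM) did the same, as did 5.14% of genes, with log2 fold changes of -0.17 ± 0.23 and -0.12 ± 0.26. Without TMM factors all 3 of these overlapped between groups, and Gata4 in immature cells was 17.8, 14.1 and 13.2 CPM in sham and 15.1 and 12.6 CPM in resection. Klf5, whose crypt and immature levels parted by library set, overlapped between groups in both classes.

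In Paneth cells Hnf4g was 4.68, 4.82 and 5.75 CPM in sham and 8.89 and 8.79 CPM in resection, from 21, 14, 6, 30 and 21 UMIs. The groups did not overlap, as for 7.06% of genes in that direction. The log2 fold change was 0.84 ± 0.38 (edgeR quasi-likelihood adjusted p = 0.9995, unadjusted 0.0413), 0.86 within set A and 0.68 within set B, and 0.79 to 0.90 over 14 alternatives. The 12 enterocyte markers, none of them at 0, summed to 2867, 6308 and 3087 CPM in sham and 3702 and 16879 CPM in resection Paneth cells, so the resection 2 library carried the most enterocyte RNA. Their part in the Hnf4g difference was not tested. Cdx1 (17.2, 23.8, 24.9 against 16.9 and 16.7 CPM) and Cdx2 (19.4, 21.4, 19.2 against 15.7 and 17.6 CPM) lay below every sham library, as did 6.38% of genes, with log2 fold changes of -0.36 ± 0.37 and -0.27 ± 0.35. Without TMM factors both overlapped, and Cdx2 was highest in resection 2 (23.4 CPM), while Hnf4g still did not overlap (4.49, 4.83 and 5.30 against 7.29 and 11.7 CPM).

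In goblet cells none of the 7 tested members separated the groups. Gata4, which missed the filter on low counts, was 8.63, 12.5 and 11.9 CPM in sham and 28.5 and 17.4 CPM in resection, from 2, 10, 7, 11 and 19 UMIs. Its share of the UMIs of Gata4, Gata5 and Gata6 in goblet cells was 9.52, 11.6 and 13.2% in sham and 22.0 and 19.8% in resection, a difference of 9.44 percentage points. A two-sided exact permutation over libraries returned p = 0.1, the smallest that 10 splits of 3 against 2 libraries allow. This ratio had been planned for villus cells only, and the goblet p was not adjusted. After thinning, Gata4 was in 1.80 ± 1.34% of goblet and 1.77 ± 1.30% of T cell-like cells. In T cell-like cells Gata4 was 18.8, 6.24, 10.6, 20.3 and 17.0 CPM without TMM factors, from 4, 4, 3, 5 and 26 UMIs. The part of carried-over transcripts in the goblet difference was not tested. In Paneth cells the Gata4 share of GATA factor UMIs was 7.78, 7.84 and 5.88% in sham and 10.0 and 14.6% in resection (exact permutation p = 0.1). It rests on 7, 4, 1, 6 and 7 Gata4 UMIs there. In villus cells the same share was 13.2, 15.9, 24.7, 10.9 and 18.6%, with overlapping groups and a difference of -3.13 points (exact permutation p = 0.7, adjusted 0.9 over 3 ratios).

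Ratios between paired factors in villus cells were compared the same way. The log2 ratio of Hnf4g to Hnf4a UMIs was -1.80, -2.38 and -2.002 in sham and -1.29 and -1.65 in resection, so both resection libraries held more Hnf4g per Hnf4a. The difference was 0.59 (exact permutation p = 0.2, adjusted 0.6), 0.51 within set A and 0.54 within set B. In crypt cells it was 0.05 (exact permutation p = 1.0). The ratio of Cdx1 to Cdx2 differed by 0.03 in villus cells (exact permutation p = 0.9, adjusted 0.9).

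The factors that work beside the members, and the genes they drive, were read from lists chosen with earlier results in view, so their directions are not independent evidence. None of the genes in these lists was called in villus or crypt cells, and each list is given by counts. Of 20 enterocyte transcription factors tested in villus cells 13 had a log2 fold change above 0, with a median of 0.04, and 4 lay above every sham library, as did 10.3% of all genes tested. Creb3l3, a lipid and apolipoprotein regulator, was 152, 225 and 168 CPM in sham and 393 and 307 CPM in resection (0.94 ± 0.30, edgeR quasi-likelihood adjusted p = 0.813). Of 17 regional factors and cofactors 5 were tested, with a median of 0.16. Zfpm1, which encodes the GATA cofactor FOG1, was 6.83, 5.76 and 1.90 CPM in sham and 16.2 and 11.9 CPM in resection (1.57 ± 0.47, adjusted p = 0.773 by the same test), with no overlap of the groups on this scale. Crypt transcription factors had 6 of 13 above 0 in crypt cells (median -0.08), and the 4 tested secretory factors were all below 0 in villus cells (median -0.84), Foxa1 among them at -0.92 ± 0.27. The 10 goblet markers, none at 0, summed to 1205, 1318 and 631 CPM in sham and 616 and 776 CPM in resection villus cells, and their part in these estimates was not tested.

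Lists of genes known to depend on the members had villus estimates of both signs. Of 13 HNF4-dependent genes tested in villus cells 11 were above 0 (median 0.28) and 7 lay above every sham library (10.3% of all genes tested), and of 8 CDX-dependent genes 6 were above 0 (median 0.26). The 10 jejunum-type genes had a median of 2.17 and the 8 ileum-type genes one of -0.11. Of the ileum-type genes 4 were above 0 and 4, Fabp6 among them, below 0. Above every sham library lay 3 of the 8, and below every sham library lay 2. Of all genes tested, 18.4% did not overlap between groups in either direction. All 4 cell cycle genes linked to KLF5 were below 0 in crypt cells (median -0.11). Apoa4 was 560, 923 and 238 CPM in sham and 7436 and 4523 CPM in resection villus cells (3.38 ± 0.58, edgeR quasi-likelihood adjusted p = 0.294), and Fabp6, the ileal bile acid binding protein, was 29098, 29020 and 45419 CPM against 6919 and 22869 CPM (-1.21 ± 0.57, adjusted p = 0.999).

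**Figure D5:**
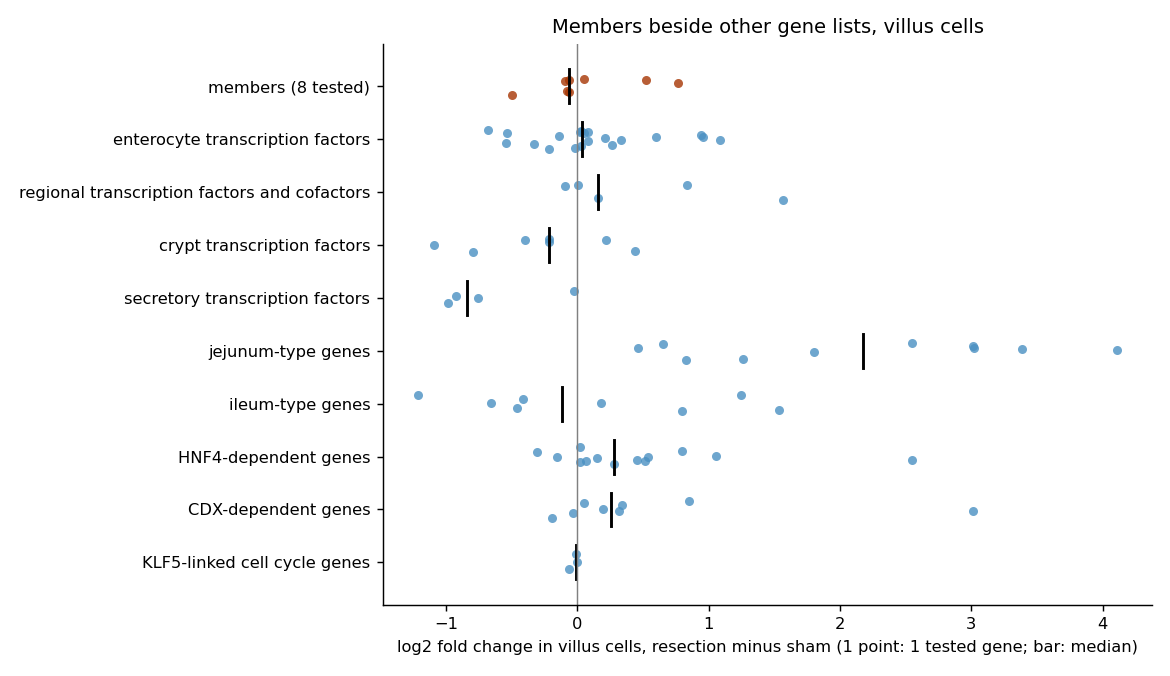
log2 fold change in villus cells (resection minus sham) for the 8 tested members and for the tested genes of each list, 1 point per gene, with a bar at the median. The members centre on -0.06 and the jejunum-type genes on 2.17.

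Among all list genes, calls were made only in the secretory classes. In goblet cells Fabp1, a fatty acid binding protein, was 151, 373 and 286 CPM in sham and 2702 and 2073 CPM in resection and rose by 3.12 ± 0.44 on the log2 scale (edgeR quasi-likelihood adjusted p = 0.0308), and Slc2a2, the GLUT2 glucose transporter, rose by 3.84 ± 0.57 (the same adjusted p). Both calls ended without sham 3, at adjusted p = 0.345 and 0.231, and with genes scaled within each library before clustering, at 0.0708 for both. In Paneth cells Slc2a2 (3.83 ± 0.61), Fabp1 (2.91 ± 0.51) and Lct, the lactase gene (2.28 ± 0.42), were called with adjusted p = 0.0290, 0.0369 and 0.0470, and each call ended without sham 2, sham 3, resection 1 or resection 2, with adjusted p from 0.0518 to 0.465. Without TMM factors, T cell-like droplets held 75.1, 217, 692, 3612 and 1887 CPM of Fabp1 and 61.0, 26.5, 21.2, 614 and 193 CPM of Lct. They held 4.69, 4.68, 7.06, 85.4 and 49.7 CPM of Slc2a2, from 1, 3, 2, 21 and 76 UMIs. The same shift was therefore present in cells that should lack these genes. The 12 enterocyte markers summed to 15259, 28431 and 14591 CPM in sham and 35802 and 55672 CPM in resection goblet cells. The part of either in the calls was not tested.

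The promoters of Lct and Fabp1 are printed because these genes are known targets of the members and were called. They are from RefSeq, build GRCm38.p6, 5′ to 3′ on the strand of the gene (Lct chr1:128328319-128328568, minus; Fabp1 chr6:71199629-71199826, plus), with capitals on matches of the same 3 motifs on either strand and with bases inside an annotated exon left out.
Lct: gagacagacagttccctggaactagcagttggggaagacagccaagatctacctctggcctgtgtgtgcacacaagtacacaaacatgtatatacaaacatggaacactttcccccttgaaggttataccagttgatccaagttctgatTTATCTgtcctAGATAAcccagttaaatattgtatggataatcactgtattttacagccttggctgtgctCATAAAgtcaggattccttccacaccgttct
Fabp1: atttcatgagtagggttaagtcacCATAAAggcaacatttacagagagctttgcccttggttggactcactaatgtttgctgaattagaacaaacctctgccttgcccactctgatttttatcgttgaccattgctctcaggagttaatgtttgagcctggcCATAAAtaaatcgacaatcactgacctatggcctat
The Lct stretch held AGATAA 101 and 90 bases before the start and TTTATG 31 bases before it. The Fabp1 stretch held TTTATG 226 and 88 bases before the RefSeq start, and it ends short of that start because the bases next to it lie in an annotated exon. The 250 bases before Slc2a2 held none of the 3 motifs, and those before Fabp6 held 1 TTTATG at 111 bases, so the motifs did not sort the called genes from Fabp6.

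The genes most similar to the members were sought among 36 transcription factors over 29 sums (stem, cycling, immature, villus, goblet and Paneth cells of each library, with no stem-like cells in sham 1), by the Pearson correlation of log2(CPM + 1). The sums share libraries, and Paneth cells, low in every member, lift all values, so r over the 24 sums without Paneth cells follows each. Cdx1 was most like Klf5 (0.96 and 0.86), Cdx2 most like Hnf4a (0.98 and 0.67), and Gata6 most like Hnf4a (0.91 and 0.66). Gata5 was most like Rxra (0.92 and 0.81), which encodes a common partner of nuclear receptors, and Hnf4g most like Vdr, the vitamin D receptor (0.96 and 0.79). With Paneth cells left out from the start, Gata6, Klf5 and Hnf4a had the same most similar gene as before (Hnf4a, Cdx1 and Cdx2). Cdx1 was then most like Hes1 (0.91), Cdx2 most like Nr5a2 (0.76), Gata5 most like Tbx3 (0.82) and Hnf4g most like Rxra (0.83). Without Paneth cells the least similar genes were Maf for Cdx1 (-0.93) and Creb3l3 for Klf5 (-0.93).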

How the data were processed

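Gene-by-cell UMI counts were deposited by the authors for each of 5 libraries, with 1 gene table. Per the labels these count matrices came from Cell Ranger (version marked as uncertain), and mm10 and GRCm38 are the builds in the submitters' processing notes. Cells with at least 500 genes and at most 20% mitochondrial UMIs were kept, and 720 likely doublets (3.80%) were removed by simulated doublets. Cells were clustered together with scanpy 1.11.5 (Leiden resolution 1) and clusters named from marker lists. The members and all list genes were left out of the variable genes used for clustering. A near-tie between immature and mature enterocyte markers (under 0.1) went to mature, a rule set after seeing the data, and a cluster whose 10 leading genes held more markers of another class stayed unnamed. UMIs were summed per library and class and tested with edgeR 4.0.16 (TMM, filterByExpr, quasi-likelihood F-test, R 4.3.3), with p-values adjusted over all genes tested. Fits and class sums use 3 sham and 2 resection libraries, and median UMIs per cell were 4541 to 6239.5. Genes of the lists named in the text come from the 3 with the lowest p in a list and class, from those called, or from those that bear on a member. Not all such genes are named, and Fabp6 is not among the 3 with the lowest p of its list in villus cells. Ratios were compared by exact permutation. DESeq2 1.42.0 and other scalings, filters, doublet and cluster settings were alternatives. Intervals cover counting error only. The members and lists were chosen with earlier results of these data known. 56 symbols sit on several rows, none of them a member. The most similar gene of Gata4 is not reported here.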

Additional observations from a re-analysis of the deposited data

How the results depend on the processing

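None of the member estimates was called by edgeR or DESeq2 under any alternative. Of 796 recomputed values, 99 changed sign, 21 moved by more than 1 SE, and the lowest adjusted p was 0.169. The difference in the log2 ratio of Cdx1 to Cdx2 (0.035) turned to -0.018 with no limit on mitochondrial UMIs, -0.030 at Leiden resolution 0.5 and -0.035 when clusters were named by the highest marker position alone, and ran from -0.091 to 0.203 without single libraries. The villus difference in the Gata4 share of GATA factor UMIs ran from -6.98 to 0.719 points without single libraries. The cause was not tested. Shared replicate numbers link 2 pairs (correlations of deviations 0.62 and 0.22), too few pairs to take the numbers as pairing. Sham 3 and resection 2, with unlike numbers, had 0.53. With 2 resection libraries, each sham library has the same value with opposite sign against the other one, so these correlations cannot decide on pairing. Sham 1 and resection 1 also share clusters, and a replicate block called 0 members in each class. Over all genes the block called 131 in villus, 50 in crypt, 113 in immature, 79 in goblet, 49 in Paneth and 156 in all epithelium, against 0, 0, 0, 5, 4 and 0. With no filter on low counts 219 villus, 12 crypt, 29 goblet, 12 Paneth and 18 epithelial genes were called. DESeq2 called 63, 1, 3, 7, 6 and 36 in the same order, and a term for the library set 10, 0, 2, 7, 8 and 3. Set B alone called 25 immature genes. Without 1 library villus calls reached 3 (resection 2 left out), goblet calls 0 to 9 and Paneth calls 0 to 11, and interaction calls ran from 0 to 49 against 5, with 117 under no filter. Depth limits Onecut2, and Gata4 in goblet and Paneth cells.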
